A study of Mus musculus with 4 samples.

Results

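Marrow RNA from mice treated with the medicinal root Astragalus membranaceus, shortened to astragalus below, was compared with marrow RNA from mice given electro-acupuncture, in which needles carry a small current. These are 2 of the 4 arrays of the study, whose other arrays hold control and cisplatin marrow. The labels give 2 weeks of treatment and tibial marrow collected by centrifugation, and marrow was pooled, with n = 6 in the design text, taken here to mean 6 per group. The sources used here give no strain, age, sex, dose or acupuncture points, and do not say whether either treated group also received cisplatin, a platinum drug that damages DNA. Each group is therefore 1 pooled array, every difference below is a size with no replicate check, and no test was possible. A log2 difference is the astragalus value minus the electro-acupuncture value, so a positive one means higher in astragalus. Where a gene is given with values in a row of 4, the order is control, cisplatin, astragalus, electro-acupuncture.

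The marrow makes red cells, granulocytes, monocytes, platelets and B cells from stem cells, beside bone-forming, fat and vessel cells that support them. Dividing precursors carry mitosis and histone transcripts, red cell precursors carry heme and membrane skeleton transcripts, and maturing neutrophils switch from primary to secondary granule genes. In such a bulk sample more cells of a type and more RNA per cell cannot be told apart.

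Genes with a 4-array mean log2 level of 5.235 or more, a floor set at the middle of all transcript clusters, were compared. This kept 17196 genes, of which 11226 were protein-coding. Several markers of red cells, neutrophils and platelets were high on both arrays. Slc4a1, the red cell anion exchanger, stood at 15.92 in astragalus and 15.19 in electro-acupuncture, Ltf, a neutrophil granule protein, at 16.81 and 16.22, and the platelet chemokine gene Ppbp at 18.96 and 19.04. Many markers of other lineages were lower, with the B cell gene Ms4a1 at 7.06 and 7.15. The macrophage gene Csf1r stood at 6.26 and 6.36, and the T cell gene Cd3e near the floor. Not all were low: the monocyte gene Ly6c2 stood at 16.85 and 16.13, the eosinophil gene Prg2 at 12.45 and 10.97. The T cell gene Cd3d stood at 8.16 and 7.62. The platelet gene Itga2b, at 8.16 and 8.17, was near the B cell gene Cd79a, at 8.20 and 8.29. The cartilage markers Col2a1 and Acan were under the floor, and the muscle markers Acta1 and Ckm stood between 5.40 and 5.80. As deposited the housekeeping genes were close, with Gapdh at 11.34 and 11.27, Hprt at 11.43 and 11.37 and Actb at 17.67 on both. Actb had this value on the cisplatin array too, among the equal values at the top of the scale described below. With the trend on level described below removed, Gapdh and Hprt differed by -0.24 and -0.26.

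The leading difference was a block of cysteine protease inhibitor genes. Stefins, which include the cystatin A proteins, block cathepsins inside cells. Mice carry a multi-copy group of them that is known from neutrophils and their precursors. All 10 measured stefin and cystatin A genes of chromosome 16 were higher in astragalus, by 0.64 to 2.83, and 9 of the 10 were at least 2-fold higher. Among all protein-coding genes 0.241% were at least 2-fold higher in astragalus. The 10 genes follow one another in the RefSeq gene order, interrupted by small RNA genes, pseudogenes and the gene model Gm7260, which was not analysed here. They were grouped after their values were seen, and probes can be shared by such near-identical copies, so their levels are not independent of each other.

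The start regions of this block are shown because members of the block carry a common stretch there, whatever the size of their difference. The 4 stefins that differed most and Csta3, a smaller member, are given. They come from RefSeq on GRCm38.p6, run 5′ to 3′ on each gene's own strand, and have the shared 12 bases in capitals.
Stfa2l1, chr16:36156735-36156814, plus strand: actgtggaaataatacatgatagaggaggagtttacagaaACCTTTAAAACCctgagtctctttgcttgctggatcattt
Stfa2, chr16:36408356-36408435, minus strand: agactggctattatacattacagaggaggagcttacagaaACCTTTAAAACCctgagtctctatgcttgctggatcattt
Stfa3, chr16:36455387-36455466, minus strand: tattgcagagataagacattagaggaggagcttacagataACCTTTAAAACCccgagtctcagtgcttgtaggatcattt
Stfa1, chr16:36277075-36277154, plus strand: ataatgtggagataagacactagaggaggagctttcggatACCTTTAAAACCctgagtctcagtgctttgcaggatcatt
Csta3, chr16:36210283-36210362, plus strand: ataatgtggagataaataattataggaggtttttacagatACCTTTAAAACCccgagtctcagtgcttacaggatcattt
The run ACCTTTAAAACC was found by looking for the 12 letters held by most of these genes in the RefSeq promoter windows. It lies in 8 of the 9 block genes that have a sequence, Csta2 being the exception, and in 11 of 27025 genes overall on either strand, or 0.0407%. It was picked from the block itself, so its rarity elsewhere is a description of related gene copies and not a site.

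Stfa2l1 stood at 12.15 in control marrow, 15.67 after cisplatin, 16.96 after astragalus and 14.13 after electro-acupuncture, a 7.11-fold difference between the last 2. Stfa2 stood at 10.52, 13.72, 15.01 and 12.23 in the same order, a 6.87-fold difference. Stfa3 stood at 10.90, 13.51, 14.78 and 12.51, a 4.82-fold difference. For each of the 3 genes the astragalus value was the highest of the 4, the control value the lowest, and the electro-acupuncture value lay under the cisplatin value. Stfa1 followed the same order with 9.84, 12.91, 14.56 and 12.61, and Cstdc6 with 9.93, 12.97, 13.96 and 12.16. The smaller members were Cstdc5 with a difference of 1.34, Csta3 with 1.15, Cstdc4 with 1.11, Csta2 with 1.04 and Cstdc3 with 0.64. All 10 genes had the same order of arrays, with control lowest, then electro-acupuncture, cisplatin and astragalus. The stefin B gene Cstb, on another chromosome, differed the other way, by -0.47.

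**Figure D1:**
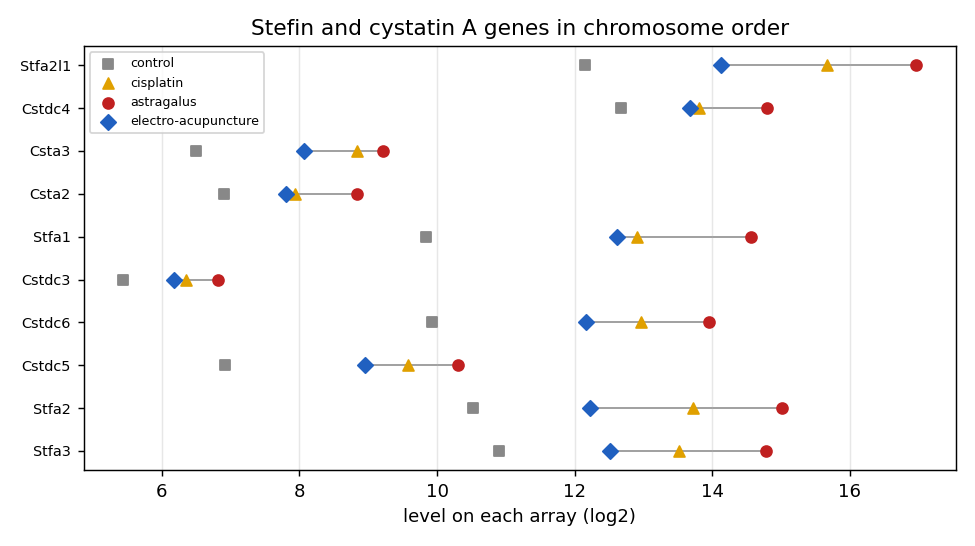
Levels (log2, horizontal axis) of the 10 stefin and cystatin A genes in chromosome order on the 4 arrays, 1 point per array, with a line joining astragalus and electro-acupuncture. Astragalus lies to the right of electro-acupuncture in all 10, from 0.64 for Cstdc3 to 2.83 for Stfa2l1.

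Among protein-coding genes above the floor, the 2 arrays had the smallest share of 2-fold differences of any pair in the study. Over all gene types, at least 2-fold differences were seen for 263 of 17196 genes, or 1.53%, with 0.657% higher and 0.872% lower in astragalus, so that 43.0% of these calls were higher. That share was 26.9% after quantile normalization and 21.6% with the trend described below removed. Among protein-coding genes 50 differed at least 2-fold, or 0.445%, with 27 higher and 23 lower, the latter 0.205%. The share of higher calls was 54.0%, and 66.7% when the arrays were scaled to the same width. It was 50.0% after quantile normalization and 44.4% with the trend removed. The share of protein-coding genes at least 2-fold different was 0.624% for cisplatin against electro-acupuncture and 1.14% for cisplatin against astragalus. It was 1.71% for control against cisplatin, 3.26% for control against electro-acupuncture and 4.11% for control against astragalus. These pairs share arrays and are set side by side only.

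The astragalus array has a wider range of values, 7.20 between its 5th and 95th percentiles over all clusters against 6.80 in electro-acupuncture, and the difference between the 2 followed the level of a gene. With protein-coding genes split into 10 bins by mean level, the median difference was -0.13 in the lowest bin and 0.30 in the highest. Overall 61.8% of protein-coding genes were higher in astragalus by any amount and 36.1% lower, with a median of 0.08. A smooth curve of difference on level (loess) was therefore subtracted as an alternative, called trend-removed below, after which 51.8% lay above the curve. Trend-removed, 0.143% of protein-coding genes were at least 2-fold above the curve and 0.178% at least 2-fold below it.

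**Figure D2:**
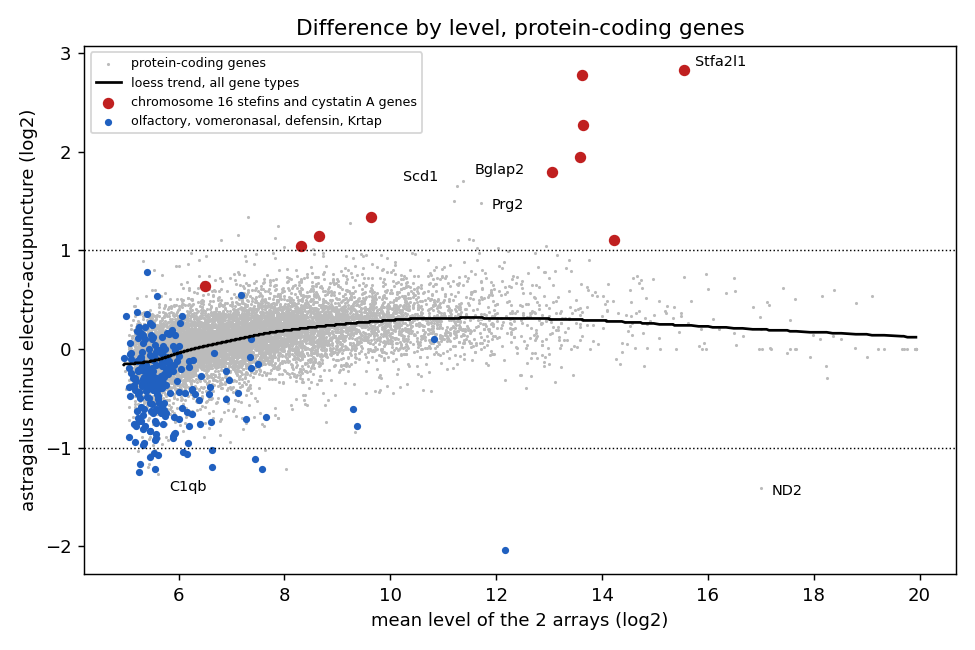
Astragalus minus electro-acupuncture (log2, vertical axis) against the mean level of the 2 arrays (log2, horizontal axis) for 11226 protein-coding genes, with the loess curve and dotted lines at 2-fold. The curve climbs from low to middle levels. The stefin and cystatin A genes lie above it, and the receptor, defensin and keratin-associated genes gather at the low end with a lower astragalus value.

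At the top of the scale equal values limit what can be seen. Of 50 protein-coding genes with a mean of 16 or more, 20 had exactly the same value on both arrays, and all 20 had it on the cisplatin array too. Of 200 genes with a mean between 12 and 14, 2 had equal values. The table's ceiling is 19.93, and S100a8, a neutrophil calcium-binding protein gene, was at it on all 4 arrays.

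Outside the stefin block, the 4 largest protein-coding differences toward astragalus were in genes of bone, fat and eosinophils. Bglap2, which encodes the bone matrix protein osteocalcin, stood at 8.47, 14.09, 12.23 and 10.53. Its neighbour copy Bglap stood at 8.96, 13.68, 11.95 and 10.45. The astragalus values were 3.25-fold and 2.83-fold above electro-acupuncture, and both arrays lay between control and cisplatin. The osteoblast and stroma list as a whole did not move with them: 12 of 20 measured genes were higher and 8 lower, and the median was 0.04. No member besides the 2 osteocalcin genes differed 2-fold. Among the bone markers, the collagen gene Col1a1 had their order of arrays, at 6.87, 9.15, 7.79 and 7.25, while Ibsp differed by 0.01. Mgp, an inhibitor of mineralisation, was at 7.49 in astragalus and 8.16 in electro-acupuncture, and the fibronectin gene Fn1 at 8.89 and 8.33.

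Scd1, the desaturase that makes monounsaturated fatty acids, stood at 10, 12.35, 12.09 and 10.44. The astragalus value lay near cisplatin and the electro-acupuncture value near control. Its second cluster gave a difference of 0.48 against 1.65 for the one used, so the clusters disagree in size. Other fat cell genes went both ways. Of the 13 measured genes of the fat cell list 8 were higher in astragalus, 4 lower and 1 equal, with a median of 0.06. The lipoprotein lipase gene Lpl was at 7.22 in astragalus and 7.87 in electro-acupuncture, and the hormone gene Adipoq at 8.11 and 8.63. Fabp4 was higher, at 9.04 and 8.66.

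Prg2, which encodes eosinophil major basic protein, stood at 12.87, 13.58, 12.45 and 10.97. Here electro-acupuncture was the array that stood low. The other eosinophil genes did not share this: the list of 10 had a median of 0.00, with Epx at 5.47 and 5.39 and Prg3 at 5.81 and 5.94, all near the floor.

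Jchain, which joins IgM and IgA into polymers, stood at 6.58, 7.27, 8.51 and 7.26. Astragalus alone was high. The plasma cell markers Sdc1 and Mzb1 differed by -0.16 and -0.04. Ighm, the IgM heavy chain, was at 15.78 in astragalus and 14.97 in electro-acupuncture, and Irf4, a plasma cell transcription factor, at 6.71 and 6.22. The plasma cell list of 11 measured genes had a median of 0.21.

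Other named genes were H3c3, a core histone, at 7.99 against 6.65, and Gch1, the first enzyme of tetrahydrobiopterin synthesis, at 9.87 against 8.59. Asprv1, a retroviral-like aspartic protease, was at 7.71 against 6.55. For Gch1 the control array was high too, at 9.37, and the cisplatin array was the lowest, at 7.97. The other 10 protein-coding genes at least 2-fold higher differed by 1.01 (Tcp11l2) to 1.13 (H1f1). They include Kpna2, a nuclear import receptor gene, at 13.47 against 12.43, and Tlr6, a sensor of bacterial lipopeptides, at 7.36 against 6.25, both named after their values were seen. Of the 27, the astragalus array held the highest of the 4 values in 22, and the electro-acupuncture array held the lowest in 7. The genes were picked for a higher astragalus value, which favours such counts.

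**Figure D3:**
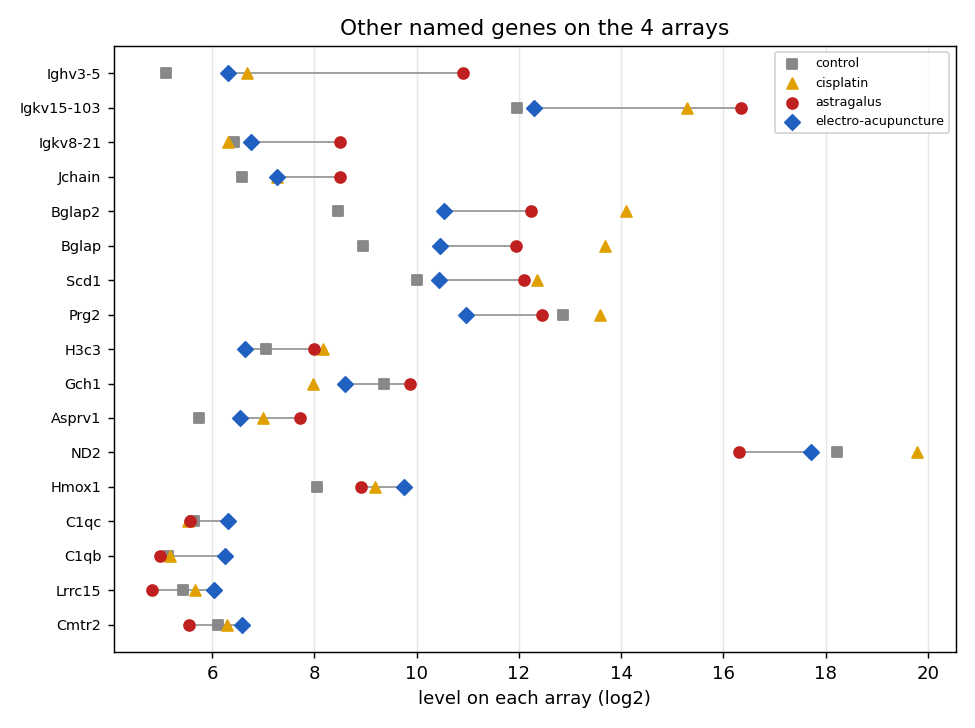
Levels (log2, horizontal axis) of named genes outside the stefin block on the 4 arrays, 1 point per array, with a line joining astragalus and electro-acupuncture. The line is longest for Ighv3-5 and Igkv15-103, with differences of 4.58 and 4.05, and the points of C1qb, C1qc and Hmox1 show electro-acupuncture as the highest array.

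Genes of dividing cells stood higher in astragalus as a group. All 39 measured genes of the mitosis and spindle list were higher, by 0.24 to 0.97, with a median of 0.64, and none reached 2-fold. Ccnb2, a mitotic cyclin, stood at 12.17 in astragalus and 11.20 in each of electro-acupuncture and cisplatin. Cenpf, a kinetochore protein gene, stood at 10.94 and 9.98 in astragalus and electro-acupuncture, Ckap2, a spindle protein gene, at 9.64 and 8.70, and Tpx2, a spindle assembly factor, at 11.43 and 10.60. These genes are expressed at levels where the whole table leaned toward astragalus. Trend-removed, the median was 0.34 and 35 of 39 lay above the curve.

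Of 11 measured replication-dependent histone genes 9 were higher, with a median of 0.60 and a trend-removed median of 0.35. H3c3 and the linker histone H1f1, at 8.39 and 7.26, reached 2-fold, while H1f5 was at 15.32 and 14.61 and H2ac20 at 11.06 and 10.40. The DNA replication and nucleotide supply list was higher in 37 of 38 genes as deposited, with a median of 0.30. Its trend-removed median was 0.03 with 24 of 38 above the curve.

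Red cell genes also stood higher. In the red cell membrane and enzyme list 24 of 25 genes were higher, with a median of 0.48 and a trend-removed median of 0.26. Ank1 and Sptb, which encode ankyrin and spectrin of the membrane skeleton, stood at 12.18 and 11.08 in astragalus against 11.41 and 10.34. Ermap, a red cell adhesion protein gene, stood at 15.04 against 14.30. The summed level of the list (log2 of the summed linear values) was 17.83, 17.48, 18.41 and 17.86. Electro-acupuncture thus lay close to control, and astragalus above both.

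The erythroid regulators were higher in 22 of 23 genes with a median of 0.44, and the heme, iron and globin genes in 18 of 22 with a median of 0.34. Their trend-removed medians were 0.16 and 0.12. Alas2, the first enzyme of heme synthesis in red cells, differed by 0.39, and Epor, the erythropoietin receptor, at 8.51 against 8.01.

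Neutrophil genes were listed by granule. The secondary and tertiary granule list was higher in 25 of 28 genes, with a median of 0.54 and a trend-removed median of 0.35. Ifitm6 was at 12.72 against 11.73, the collagenase gene Mmp8 at 14.21 against 13.31, Anxa1, an anti-inflammatory annexin, at 13.81 against 13.02, and Cybb, the oxidase subunit, at 13.29 against 12.51. The primary granule list of 16 genes had a median of 0.16 and a trend-removed median of 0.02, with Mpo, the myeloperoxidase gene, at 13.75 against 13.25. With the arrays scaled to one median and width the medians of the late and early lists were 0.23 and 0.15, and the difference between the lists was not tested.

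Macrophage genes stood lower in astragalus, and so did the NK and cytotoxic cell list, with 9 of 12 genes lower, a median of -0.25 and a trend-removed median of -0.13. In the monocyte and macrophage list 21 of 28 genes were lower, with a median of -0.24 and a trend-removed median of -0.33. C1qb, a subunit of the complement starter C1q, stood at 5.13, 5.18, 4.98 and 6.25. Electro-acupuncture was the array that stood apart, and the other 3 were under the floor, so C1qb passed the filter only through electro-acupuncture. C1qc, at 5.64, 5.52, 5.57 and 6.31, was also highest there, and C1qa, under the floor by its mean, was at 5.11 in astragalus and 5.59 in electro-acupuncture.

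Hmox1, the heme-degrading enzyme of iron-recycling macrophages, stood at 8.05, 9.19, 8.92 and 9.76. Spic, the transcription factor of those macrophages, differed by -0.70, and Timd4, a receptor for dying cells, was at 5.51 in astragalus and 6.17 in electro-acupuncture. Not all members went this way: Ly6c2, carried by inflammatory monocytes, was at 16.85 in astragalus and 16.13 in electro-acupuncture. Because Ly6c2 is so abundant, the summed level of the list was higher in astragalus, 16.92 against 16.26, although its median was lower.

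Of the 50 lists with at least 5 measured genes, 8 had a median of 0.3 or more and 40 lay between -0.15 and 0.25. The latter held p53 targets (22 genes, median 0.05), interferon-stimulated genes (28, 0.12), the circadian clock (13, 0.02), the glucocorticoid response (18, 0.01), cytosolic ribosomal proteins (31, 0.06) and the proteasome (35, 0.17). The megakaryocyte and platelet list of 25 genes had a median of 0.04 and a trend-removed median of -0.21. Cdkn1a, the p53-induced cell cycle inhibitor, was at 8.03 against 8.27. Kit, the stem cell factor receptor, was at 6.85 against 6.72, and Fos, an immediate early factor, at 5.58 against 6.23.

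**Figure D4:**
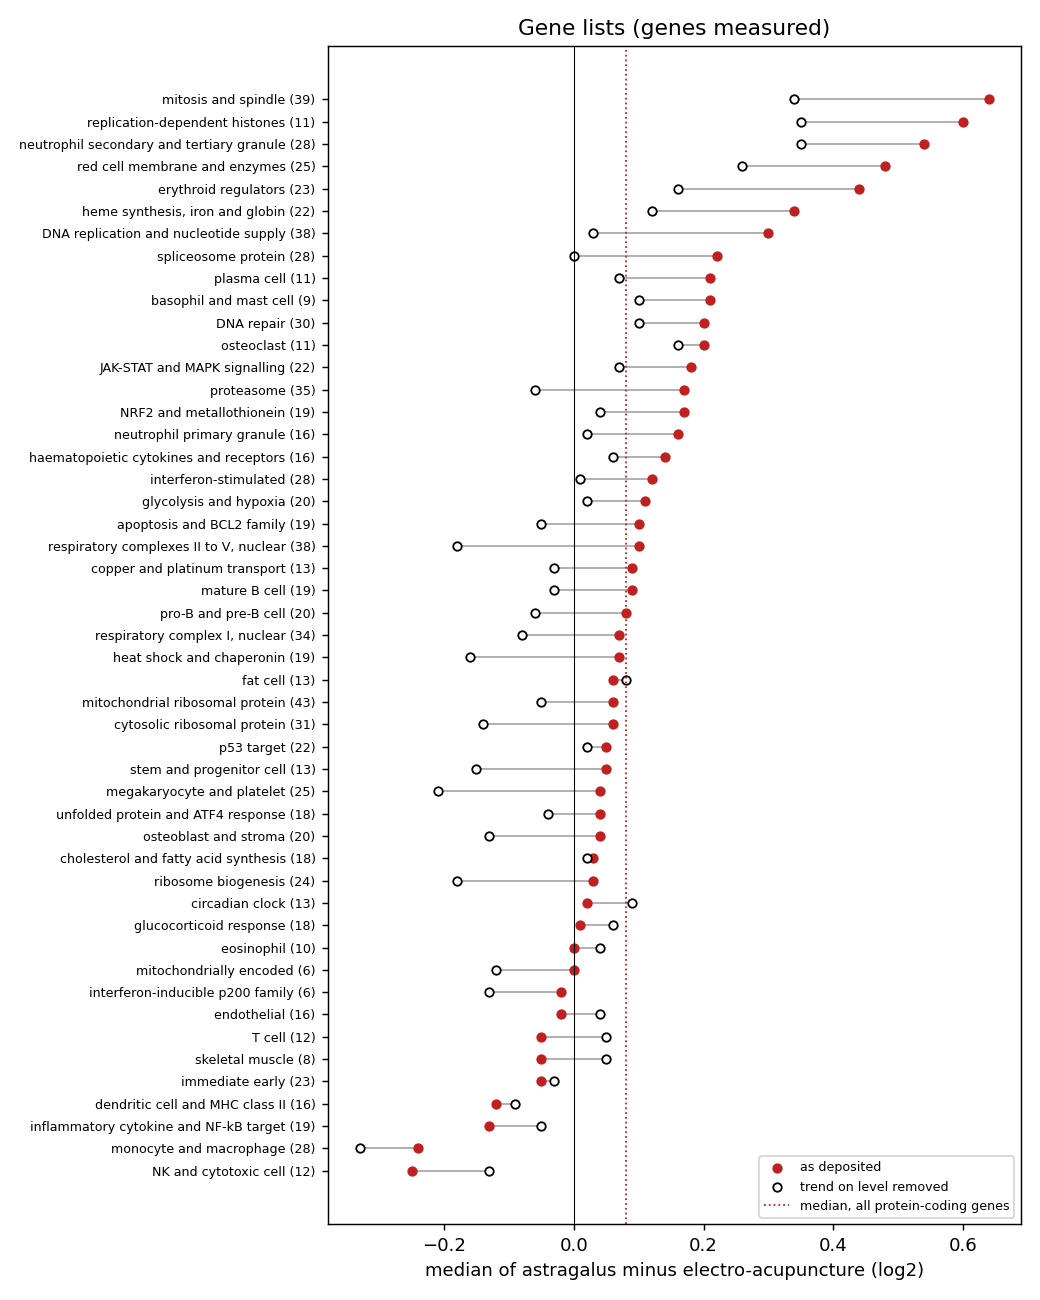
Median astragalus minus electro-acupuncture difference (log2, horizontal axis) of each gene list except the stefins, as deposited (red) and with the trend on level removed (open), the number of measured genes in brackets. Mitosis, histone, late neutrophil granule and red cell membrane lists lie at the right in both, and the monocyte and macrophage list lies left of 0 in both.

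The protein-coding genes lower in astragalus were mostly faint. The electro-acupuncture value was above the floor for all 23 at least 2-fold lower genes and the astragalus value was under it for 12. Astragalus held the lowest of the 4 values in 21 and electro-acupuncture the highest in 20. The floor was set on a mean that includes electro-acupuncture, and the genes were picked for a lower astragalus value. These counts therefore largely follow from the selection. Many belong to families known from other tissues, grouped after their values were seen. Among them 8 are olfactory receptors, out of 154 measured with a median of -0.30 and a trend-removed median of -0.18. Another 3 are defensins, out of 30 with medians of -0.42 and -0.40. Among all protein-coding genes 0.205% were at least 2-fold lower, and the lowest level bin had a median difference of -0.13. Of the 23, those named by size included Krtap5-3, at 6.97 against 8.19, and Defb46, with a difference of -1.11. Lrrc15 stood at 4.83 against 6.03, and Cmtr2, an mRNA cap methyltransferase gene, at 5.54 against 6.58. Apart from C1qb and ND2, described elsewhere, the others of the 15 largest, among them Cox7b2, Tas2r126, Defa30, Rhox1, Klrc1 and Odf1, differed by -1.17 to -0.95.

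In the highest of the 10 level bins 2 genes were lower by 2-fold. ND2, a mitochondrially encoded subunit of respiratory complex I, stood at 18.23, 19.79, 16.30 and 17.71. Of the 6 measured mitochondrial genes 4 had equal values on both arrays. These equal values were at the table's ceiling of 19.93, where a difference cannot be seen. Olfr1346, named after its value was seen, stood at 13.13, 13.06, 11.15 and 13.19, so astragalus alone was low.

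Small RNA genes were the other large group. MiRNA genes are transcribed as hairpins that are cut to short mature RNAs, and which of these forms a cluster reports is not given in the labels. Of 533 measured miRNA genes 70 were at least 2-fold lower in astragalus and 7 higher, with a median of -0.34. Over all gene types 0.872% of genes were at least 2-fold lower and 0.657% higher. Of the 71 genes of the Mir297, Mir466, Mir467 and Mir669 group, repeated copies of related hairpins, 68 were lower and 40 at least 2-fold lower, with a median of -1.03. The other 462 had a median of -0.26 with 30 lower by 2-fold. Many copies carry identical values: the 71 genes hold 50 distinct sets of values, of which 26 were at least 2-fold lower. The group was chosen with these values known.

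Mature sequences, from RefSeq, are shown for the 4 members of that group at least 2-fold lower for which one was found, with the seed (bases 2 to 8) in capitals, so that the family's hairpin products can be compared.
miR-467h: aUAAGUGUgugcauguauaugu
miR-669n: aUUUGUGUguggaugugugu
miR-466j: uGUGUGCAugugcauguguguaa
miR-466k: uGUGUGUGuacauguacauguga
No 2 of these 4 share a seed. G and U make up 68.2% to 90.0% of these 4. Only 8 of the 71 measured group genes have a mature form in the source. Over all their mature forms the median share was 49.1%, against 54.5% in the other measured miRNA genes. Most of the group has no such sequence here, so whether a high share marks the group cannot be read from these values.

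Mir466o, the largest difference, stood at 17.71, 17.43, 15.43 and 17.63. Mir467h stood at 15.56, 14.66, 14.02 and 16.03, and Mir669b at 9.40, 8.73, 8.58 and 10.53. Astragalus was the lowest array for each. A second cluster differed by -0.65 for Mir466o and -0.11 for Mir669b, so clusters of 1 gene disagree in size.

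Outside that group, Mir195b, named after its value was seen, was at 5.65 against 7.34. Its seed is shared by Mir15a, Mir195a and Mir6419 among the measured genes, which differed by 0.79, -0.31 and -0.29, so these differences had both signs. Mir142, a miRNA gene of blood cells also named afterwards, differed by -1.31. Both are shown for comparison of their seeds.
miR-195b: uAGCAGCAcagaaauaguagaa
miR-142a-3p: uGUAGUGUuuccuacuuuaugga
The largest miRNA differences toward astragalus were 1.42 for Mir5619, 1.37 for Mir8115 and 1.30 for Mir680-2, whose second cluster gave 0.42. For each of these genes electro-acupuncture was the lowest array and control the highest, so the astragalus value lay under control.

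**Figure D5:**
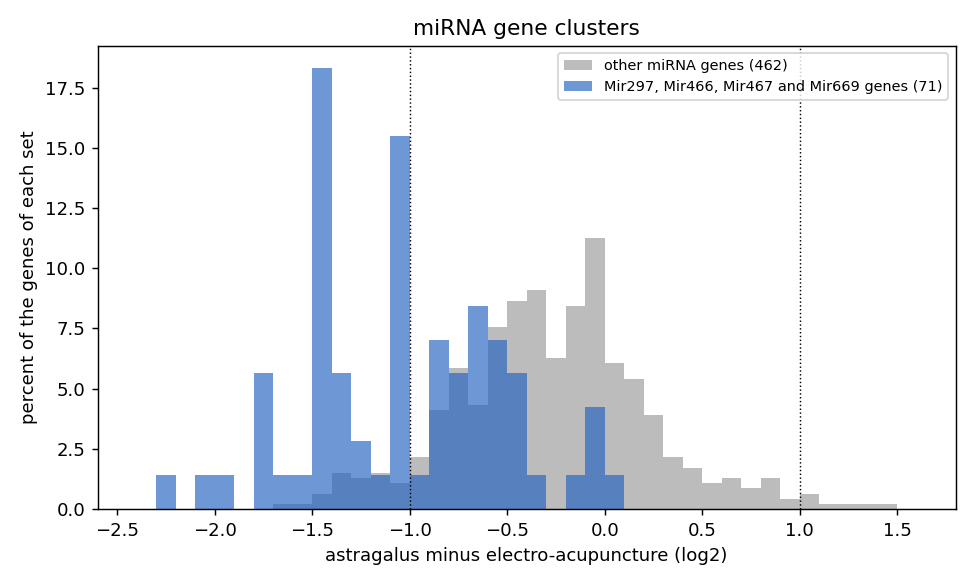
Astragalus minus electro-acupuncture (log2, horizontal axis) for 71 genes of the Mir297, Mir466, Mir467 and Mir669 group and 462 other miRNA genes, as percent of each set (vertical axis), with dotted lines at 2-fold. The first set centres near -1.03 and the second near -0.26.

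Antibody variable segments gave the largest differences of the table. Ighv3-5, a heavy chain V segment, stood at 5.10, 6.69, 10.90 and 6.32, a 23.9-fold difference. Igkv15-103, a kappa V segment, stood at 11.97, 15.28, 16.34 and 12.29, a 16.6-fold difference, and Igkv8-21 at 6.42, 6.31, 8.50 and 6.77. For Ighv3-5 and Igkv8-21 astragalus alone was high, and for Igkv15-103 cisplatin was high too. Antibody V segments as a class did not lean that way. The 95 heavy chain segments had a median of 0.05, with 3 at least 2-fold higher and 3 lower, and the 62 kappa segments a median of -0.04, with 7 higher and 3 lower. The 57 T cell receptor V segments had a median of -0.38, with 55 lower and 4 of these at least 2-fold lower. They were faint, with a median level of 5.57 in astragalus and 5.93 in electro-acupuncture. Their trend-removed median was -0.28, with 48 below the curve and 9 above. The shares over all genes were 0.657% at least 2-fold higher and 0.872% lower. Antibody segments lower in astragalus included Igkv4-50, at 5.56 against 7.22, Igkv4-90, at 5.79 against 7.31, and Ighv14-4, at 5.97 against 7.31.

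The remaining types differed less. Of 546 snoRNA genes, which guide RNA modification, 164 were higher and 375 lower by any amount, with a median of -0.20. At least 2-fold, 6 were higher and 18 lower. Gm26070 was at 9.29 against 11.02, and Snord45b at 10.21 against 9.12. Of 586 snRNA genes 14 were at least 2-fold higher and 7 lower, of 2646 pseudogenes 42 and 18, and of 1087 lncRNA genes 5 and 2. Over all genes 0.657% were at least 2-fold higher and 0.872% lower. Trend-removed, 4 snRNA genes lay at least 2-fold above the curve and 8 below it, and 13 pseudogenes above and 23 below. For lncRNA genes these counts were 3 and 0, and for snoRNA genes 4 and 26. Xist, the X inactivation RNA, was at 6.55 against 6.94.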

How the data were processed

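Each of the 4 arrays measured 1 pool of mouse bone marrow RNA. The values were deposited on a log2 scale, 1 per transcript cluster, and were made with Affymetrix Expression Console, per the submitters' processing notes. The summary and normalization method is not given in the sources used here, and the log2 scale was read from the values. The table holds 65956 clusters, of which 31258 carried 1 gene symbol after symbols were updated through RefSeq names (GRCm38.p6). For a gene with several clusters the one with the highest mean was used. Differences were computed in Python 3.11.15 with pandas 2.3.3 and the trend with the lowess function of statsmodels 0.14.6 (span 0.3). The subtraction of the trend was tested on simulated data.

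No test was possible, since a group is 1 array, and the number of arrays limits precision. A gene was counted when its log2 values differed by 1 or more. The comparison, members and 51 gene lists were chosen with earlier results of these data known. Named genes are the 15 largest protein-coding differences in each direction (unnamed models, olfactory and vomeronasal receptors, V segments and genes at the ceiling on both arrays passed over), the 4 largest of each list with at least 5 measured genes, the 3 largest in each direction of other gene types with at least 20 genes, and a fixed set of 13 genes. The text gives a selection of these. Some fixed genes and markers are not reported here. Alternatives were quantile normalization, trend removal, rescaling, other filters and the mean of a gene's clusters.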

Additional observations from a re-analysis of the deposited data

How the results depend on the processing

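No paired analysis was possible because each group has 1 array, and no array could be left out. Against 50 protein-coding genes that differed 2-fold or more in the deposited values, quantile normalization gave 30 (15 higher, 15 lower) and 33 differed with the arrays scaled to one median and width (11 lower). With the loess trend removed 16 were higher. Without a filter 41 were lower, and with a filter at the 75th percentile 7 were lower and 171 genes of all types differed. The mitosis median was 0.44 after quantile normalization and 0.34 trend-removed, the histone median 0.37 and 0.35, the red cell membrane median 0.28 and 0.26, and the stefin median 2.01 and 1.98. Scaling to one width gave 1.92 for the stefins and 0.23 for late neutrophil granule genes. The monocyte and macrophage median ran from -0.33 to -0.09 over 7 other settings of scaling, filter and cluster choice, and the Mir297, Mir466, Mir467 and Mir669 median from -1.03 to -0.85. Counting identical values once, an alternative chosen after seeing the data, gave 248 genes of all types against 263, and -1.04 for that miRNA median. Of 67 named genes at least 2-fold different, 53 stayed so with the trend removed, 55 after quantile normalization and 58 after scaling. None changed sign in these 7 settings, which says little. The genes were picked for a large difference, and the filters leave a gene's values unchanged.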
